A study of Rattus norvegicus with 4 samples.

Results

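Sox genes encode transcription factors that bind DNA through a shared high-mobility-group (HMG) domain and are sorted into subfamilies by the likeness of that domain. The 10 genes described here are the SoxB gene Sox2, the SoxC genes Sox4, Sox11 and Sox12, the SoxD genes Sox5, Sox6 and Sox13, and the SoxE genes Sox8, Sox9 and Sox10. They were chosen by gene symbol from the 17327 genes that are listed in the counts, and all 10 were found.

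OLN93 cells are an oligodendroglial line from rat that became immortal spontaneously and is grown with fetal calf serum. RNA-Seq was performed on 2 control libraries, which carry an active Sox10 gene, and on 2 libraries from Sox10-deficient clones A and B, in which Sox10 had been inactivated by CRISPR/Cas9 with different guide RNAs. Each Sox10-deficient library represents 1 clone, whereas the sample labels call the controls biological replicates and the study's methods call them clones. Effects of Sox10 loss and of the isolation of these clones cannot be told apart in this design.

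In the oligodendroglial lineage, Sox9 acts early in glial specification, whereas Sox10 stays present from the precursor stage to the myelinating oligodendrocyte and drives myelin genes. Sox8 is the remaining SoxE protein with overlapping activity. The SoxD proteins Sox5 and Sox6 carry no activation domain of their own and keep precursors from premature differentiation. Sox2 marks neural stem and precursor cells, and the SoxC proteins are best known from immature neurons.

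The deposited counts are shallow, with 60951 to 104017 counts per library. Levels are given as counts per 1000000 counts (CPM) after normalization by the TMM method of edgeR. A gene with 0 counts in a library could still have had up to 3 counts, which corresponds to 29.1 to 48.0 CPM, and this limit covers counting error only. Of the 10 Sox genes, 5 had enough counts to pass edgeR's filter, namely Sox2, Sox4, Sox6, Sox9 and Sox10. These were compared between clones and controls by edgeR's quasi-likelihood test, fitted on all 2438 genes that passed. A gene counted as changed if it differed at least 2-fold with an adjusted p (Benjamini-Hochberg) of 0.05 or less. Sox5, Sox8, Sox11, Sox12 and Sox13 did not pass the filter and are given by their counts. For these, the ratio of the pooled counts is given with its exact 95% counting interval, which does not contain the spread between libraries. Transcript lengths were not used, so that levels are compared between libraries and not between genes.

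**Figure D1:**
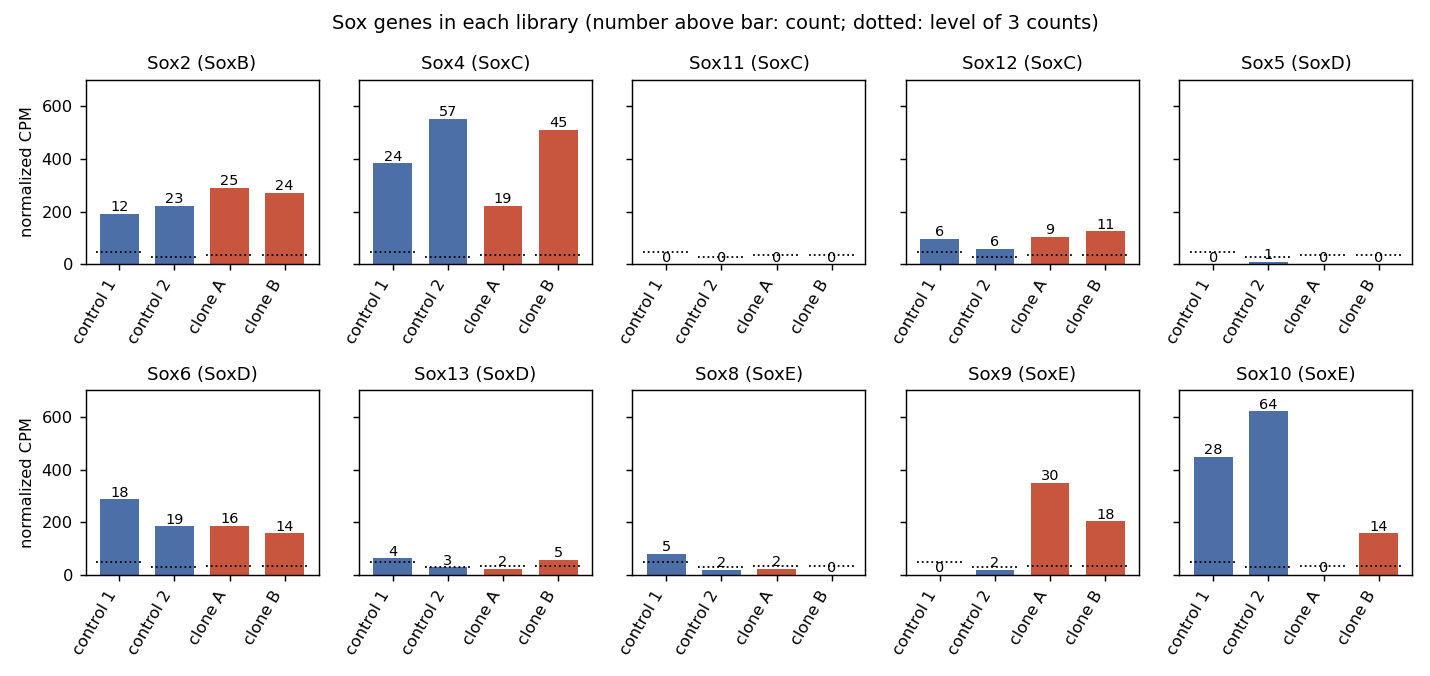
Level of each Sox gene in each library, in normalized CPM on a linear axis that starts at 0. Blue bars are the controls, red bars are the Sox10-deficient clones, the number above a bar is the count, and the dotted line is the level of 3 counts. Sox10 and Sox9 stand out, with 28 and 64 counts of Sox10 in the controls against 0 and 14 in the clones, and 0 and 2 counts of Sox9 against 30 and 18.

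Among the SoxE genes, the edited gene Sox10 was lower and Sox9 was higher in the Sox10-deficient clones, and Sox8 was too low to be tested. By the adjusted criterion, 1 Sox gene was called lower and 1 was called higher among the 5 that were tested. Over all tested genes, the same criterion called 2.50% lower and 1.11% higher, or 3.61% in either direction. With the unadjusted p, Sox10 and Sox9 were again the Sox genes called, against 6.97% of all tested genes lower and 4.63% higher. The other tested genes Sox2, Sox4 and Sox6 were not called. Sox9 passed the filter through the clones alone, and Sox10 would have failed it without the controls, so that both entered the test through the group in which they were high and their number among the tested genes is a description.

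Sox10, listed by the authors as ENSRNOG00000011305, had 448 and 620 CPM in the controls, 0 CPM in clone A and 159 CPM in clone B. The levels of the controls and clones did not overlap, which held for 21.4% of all tested genes in the direction of a lower level. The 0 counts of clone A allowed up to 34.8 CPM, and clone B kept 29.7% of the mean level in the controls. The deposited counts thus contained Sox10 reads in the library labelled as Sox10-deficient clone B. Without correction for composition, the 14 counts of clone B corresponded to 157 CPM (exact 95% interval 85.9 to 264), which lies below the interval of 305 to 664 in control 1. The fitted log2 fold change was -2.74 ± 0.62 (SE, 95% interval -4.05 to -1.43) with an adjusted p of 0.0172 in edgeR. Sox10 was not called in the fits without clone A or without control 2, which each leave 1 library in a group. Fewer genes were called over all tested genes in these fits as well, and also without clone B, where Sox10 was still called. The reason for the loss of the Sox10 call was not tested. The log2 fold change of Sox10 was -1.75 without clone A and -2.49 without control 2. Without clone B, it was -8.51, a value fitted against 0 counts that depends on the prior count. DESeq2 gave -2.74 ± 2.22 (SE) with an unadjusted p of 0.217 and an adjusted p of 0.9998, an adjusted value shared by Sox2, Sox4 and Sox6.

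Sox9, listed as ENSRNOG00000002607, had 0 and 19.4 CPM in the controls, 348 CPM in clone A and 204 CPM in clone B. Both controls lay below the level of 3 counts and both clones lay several times above it. With 2 counts in all in the controls, the pooled ratio of clones to controls was 22.8, with a counting interval of 5.98 to 194. The fitted log2 fold change was 4.37 ± 0.82 (SE, 95% interval 2.64 to 6.10) with an adjusted p of 0.00425 in edgeR. Because Sox9 was tested only through its counts in the clones, this p belongs to a gene that was selected by its high group, and the fitted value at such low control counts depends on the prior count. With a higher prior count of 5, the log2 fold change was 2.25. The level in clone B was 0.585 times that in clone A, but the counting interval of 0.307 to 1.08 includes equal levels. DESeq2 also called Sox9, with a log2 fold change of 4.57 and an adjusted p of 0.0315. Sox9 was not called in the fits without clone A or without control 2, which each leave 1 library in a group. Fewer genes were called over all tested genes in these fits as well, and also without clone B, where Sox9 was still called. The reason for the loss of the Sox9 call was not tested. The log2 fold change of Sox9 was 3.97 without clone A and 7.44 without control 2, the latter against 0 counts in the remaining control.

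Sox8, listed as ENSRNOG00000018841, was counted 5 and 2 times in the controls, compared with 2 and 0 in clones A and B. Only control 1, at 79.9 CPM, was above the level of 3 counts, and the groups touched at 2 counts. The pooled ratio of clones to controls was 0.272, with a counting interval of 0.0275 to 1.43. Without a filter, edgeR gave a log2 fold change of -1.85 ± 1.50 (SE) with an adjusted p of 0.895. No change of Sox8 could thus be detected with these few counts. The study itself names Sox8 among its candidate Sox10 targets in precursor cells, which it required to be lower in Sox10-deficient cells.

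Because Sox9 and Sox10 moved in opposite directions, the SoxE genes were also summed. Their counts summed to 528 and 659 CPM in the controls and to 372 and 362 CPM in clones A and B. The sum in the clones was 61.9% of that in the controls, without overlap. Of all tested genes, taken singly, 21.4% were lower without overlap. The sum includes the edited gene Sox10, which provided most SoxE counts of the controls. The pooled ratio was 0.602, with a counting interval of 0.433 to 0.832 that leaves out the spread between libraries. No test was made on this sum, and 2 against 2 libraries do not allow an exact two-sided permutation p below 0.333. Without Sox10, the remaining SoxE counts were 79.9 and 38.8 CPM in the controls and 372 and 204 CPM in the clones.

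The make-up of the SoxE counts differed as well. Sox10 provided 84.8% of 33 SoxE counts in control 1 (exact 95% interval 68.1 to 94.9%) and 94.1% of 68 counts in control 2 (85.6 to 98.4%). In clone A, Sox9 provided 93.8% of 32 SoxE counts (79.2 to 99.2%). In clone B, Sox9 provided 56.3% (37.7 to 73.6%) and Sox10 provided 43.8% (26.4 to 62.3%) of 32 counts. Sox9 provided 0 of 33 SoxE counts in control 1, which allows a share of up to 9.09%, and 2.94% of 68 counts in control 2 (0.358 to 10.2%). These are shares of reads and not of molecules, because the transcripts can differ in length. The library with no Sox10 counts had the highest Sox9 level, and the clone that kept Sox10 reads had a Sox9 level between this and the controls. For Sox9, however, the counting interval of clone B over clone A was 0.307 to 1.08, which includes equal levels. With 2 clones, no relation between both genes can be tested.

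**Figure D2:**
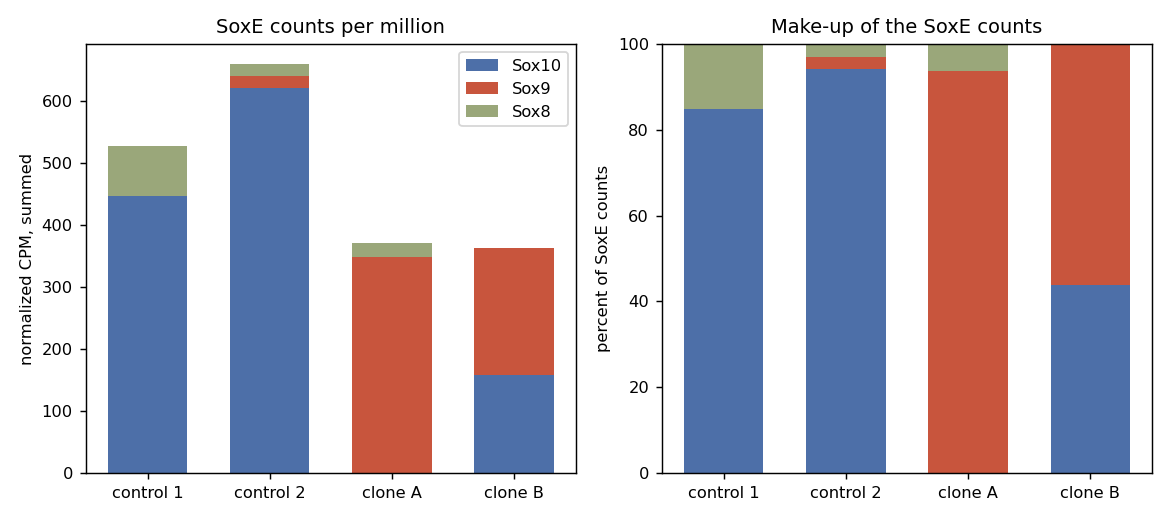
SoxE counts in each library, as summed normalized CPM (left) and as percent of all SoxE counts of that library (right), with Sox10 in blue, Sox9 in red and Sox8 in green. The summed bars reach 528 and 659 CPM in the controls and 372 and 362 CPM in clones A and B, and the dominant colour turns from Sox10 in the controls to Sox9 in the clones.

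Outside the SoxE group, no Sox gene passed the test. Sox2, listed as ENSRNOG00000012199, had 192 and 223 CPM in the controls and 290 and 272 CPM in clones A and B. Each clone lay above each control, as for Sox9 and for 21.6% of all tested genes, and the mean was 207 ± 22.0 CPM in the controls and 281 ± 13.2 CPM in the clones (SD, n = 2 each). The log2 fold change was 0.42 ± 0.40 (SE, 95% interval -0.43 to 1.26) with an adjusted p of 0.737 in edgeR. Non-overlap of controls and clones in either direction occurred in 43.0% of all tested genes. The interval leaves room for a 2-fold increase of Sox2 but not for a 2-fold decrease.

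Among the SoxC genes, Sox4 had 384 and 553 CPM in the controls, 221 CPM in clone A and 510 CPM in clone B. Clone B lay within the range of the controls, and clone A lay below it. The ratio of clone B to clone A was 2.31, with a counting interval of 1.32 to 4.18 that leaves out the spread between libraries. Libraries of a group differed by more than sampling noise over all tested genes as well. The ratio of control 2 to control 1 was 1.44, with an interval of 0.880 to 2.43. The log2 fold change of clones against controls was -0.38 ± 0.38 (SE, 95% interval -1.19 to 0.42) with an adjusted p of 0.752 in edgeR. Without clone A, its sign turned to 0.11, and without clone B it was -1.11 with an adjusted p of 0.409 from edgeR. Sox12, listed as ENSRNOG00000007514, had 6 counts in each control and 9 and 11 counts in the clones. This corresponded to 95.9 and 58.2 CPM in the controls and to 105 and 125 CPM in the clones, without overlap. Non-overlap toward a higher level held for 21.6% of all tested genes. Its pooled ratio was 1.58, with a counting interval of 0.737 to 3.55, and the unfiltered fit gave a log2 fold change of 0.64 ± 0.72 (SE) with an adjusted p of 0.895 in edgeR. Sox11 had 0 counts in all 4 libraries. The SoxC counts together were 480 and 611 CPM in the controls and 325 and 634 CPM in clones A and B, and mostly came from Sox4.

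Among the SoxD genes, Sox6, listed as ENSRNOG00000020514, had 288 and 184 CPM in the controls and 186 and 159 CPM in clones A and B. Control 1 was high, whereas control 2 and clone A were nearly level. The log2 fold change was -0.42 ± 0.45 (SE, 95% interval -1.36 to 0.53) with an adjusted p of 0.770 in edgeR. Leaving out control 1 brought it to -0.12 and leaving out control 2 to -0.77. Sox13, listed as ENSRNOG00000028353, was counted 4 and 3 times in the controls, compared with 2 and 5 in the clones. The pooled ratio of Sox13 was 0.950, with a counting interval of 0.284 to 3.17. Sox5, listed as ENSRNOG00000027869, had a single count in control 2 and 0 counts in the other libraries, so that no change could be measured. The study names Sox5 in the same set of candidate targets as Sox8. The SoxD counts together were 352 and 223 CPM in the controls and 209 and 215 CPM in the clones, with a pooled ratio of 0.781 and a counting interval of 0.492 to 1.23.

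For the tested genes Sox2 and Sox6, the RefSeq promoter table for GRCr8 gives a start site. It holds entries for 5 of the 10 genes. The 250 bases before it were searched on both strands for ACAATG and ACAAAG, which are common forms of the site that Sox proteins recognize. The stretches are shown because they are the regulatory sequence that could be read for tested Sox genes, with matches in capitals, on the strand of the gene, so that a match on the other strand reads as CATTGT or CTTTGT.
Sox2 (chr2:119464881-119465130, plus strand): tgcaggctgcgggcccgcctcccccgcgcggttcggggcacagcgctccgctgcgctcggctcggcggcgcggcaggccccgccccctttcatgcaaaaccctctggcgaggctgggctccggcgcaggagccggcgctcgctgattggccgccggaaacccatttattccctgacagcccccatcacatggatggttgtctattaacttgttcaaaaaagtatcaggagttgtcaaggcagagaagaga
Sox6 (chr1:179665372-179665621, minus strand): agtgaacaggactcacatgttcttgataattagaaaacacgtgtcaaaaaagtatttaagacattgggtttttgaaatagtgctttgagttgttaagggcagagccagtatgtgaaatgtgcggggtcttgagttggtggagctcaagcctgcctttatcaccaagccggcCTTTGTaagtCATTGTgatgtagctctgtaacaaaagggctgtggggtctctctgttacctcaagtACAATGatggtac
The Sox6 stretch held 3 matches, at 79, 69 and 13 bases before the start site, and the Sox2 stretch held none. Of 33469 such stretches in the table, 11.1% held ACAATG, 16.3% held ACAAAG and 25.3% held either. Stretches for Sox11, Sox12 and Sox13 held no match either. A match in these letters is a description and not a bound site, and the start given for Sox6 is that of the table only.

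**Figure D3:**
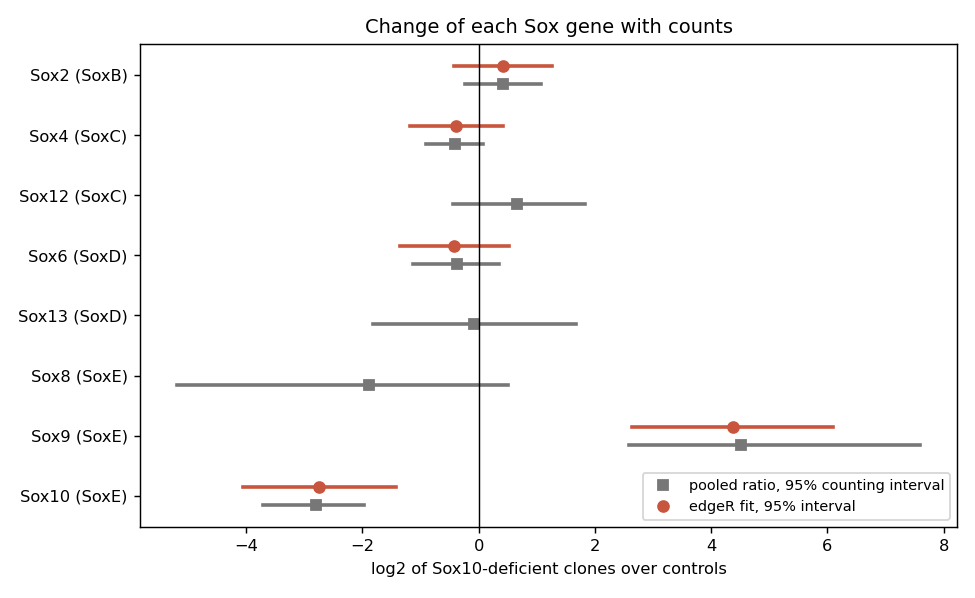
Log2 change of Sox10-deficient clones over controls for the 8 Sox genes with more than 3 counts in a group. Red circles and lines are the edgeR fit with its 95% interval for the 5 tested genes, grey squares and lines are pooled ratios with their 95% counting interval, and the vertical line marks no change. The intervals of Sox9 and Sox10 lie away from 0 on opposite sides, and those of the other 6 genes include 0.

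**Figure D4:**
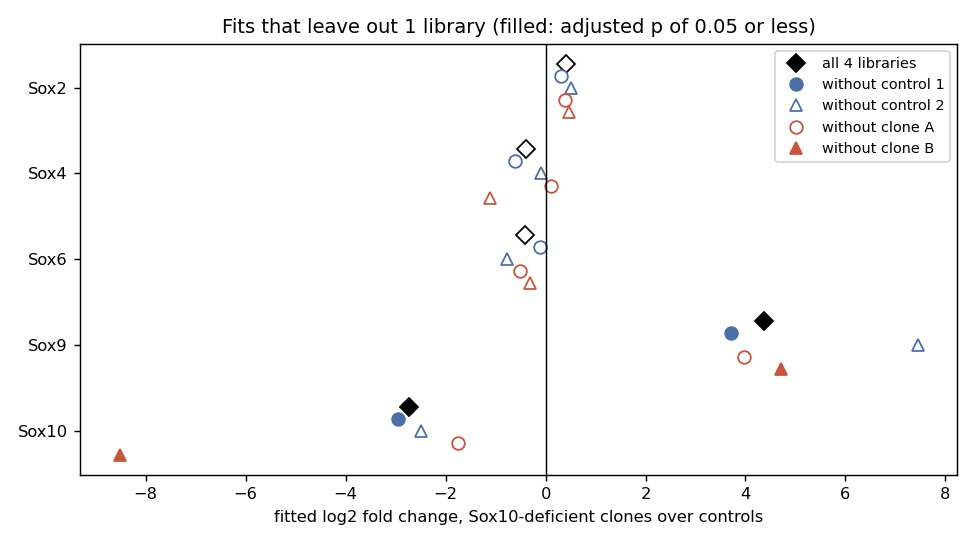
Fitted log2 fold change of the 5 tested Sox genes with all 4 libraries (diamonds) and after leaving out 1 library (blue for a control, red for a clone), with filled symbols for an adjusted p of 0.05 or less. Sox9 stays to the right of 0 and Sox10 to the left in each fit, but their symbols are open without control 2 and without clone A. Sox4 crosses 0 without clone A.

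All 10 Sox genes together had 1551 and 1716 CPM in the controls and 1196 and 1484 CPM in clones A and B. Leaving out Sox9 and Sox10, the other 8 genes summed to 1103 and 1076 CPM in the controls and to 848 and 1121 CPM in the clones, a pooled ratio of 0.908 with a counting interval of 0.732 to 1.13. Clone A was the low library in this sum, and clone B was slightly above the controls. Sox2 provided 12.4% and 13.0% of the counts of the 10 genes in the controls. In clones A and B, Sox2 provided 24.3% and 18.3%, and Sox9 provided 29.1% and 13.7%.

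The authors' deposited mean read count, which is given per Ensembl gene, is 6627 for Sox10, 4857 for Sox2, 2772 for Sox6, 1999 for Sox9, 1438 for Sox12 and 856 for Sox13. It is 254 for Sox8, 64 for Sox5 and 0 for Sox11, and Sox4 was not matched by symbol. For the 8 genes with a value above 0, the deposited counts per library amounted to between 0.391% and 0.886% of this mean. The median over 5387 genes with a mean of at least 500 was 0.384%, and the sources used here give no reason for this gap. The 8 genes thus lay between 1.02 and 2.31 times the median, with Sox8 at the upper end. Sox5, Sox8 and Sox13, which had the lowest counts above 0, also had the lowest values of the authors' mean above 0.

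Of 9 further Sox genes, 5 were listed in the counts and only Sox15 had any. Sox15 was counted 9 and 37 times in the controls, compared with 13 and 31 in the clones. Its log2 fold change was -0.07 ± 0.48 (SE) with an adjusted p of 0.984 in edgeR. The authors' deposited mean of Sox15 is 1, so that its deposited counts were 5859 times as high in relation to this mean as those of the median gene. In the rat assembly GRCr8, Sox15 overlaps Mpdu1 and has Fxr2 close by, and its counts are therefore uncertain. Sox4, Sox9, Sox11 and Sox12 have no other gene within 5000 bases in that assembly. Sox2 overlaps LOC103691527, Sox6 overlaps Trnav-aac35 and Sox5 overlaps several gene models, none of which is listed in the counts. The counts of Sox2, Sox5 and Sox6 are therefore uncertain as well. Sox8 has Lmf1 and Sox13 has Etnk2 close by. Sox10 has Polr2f close by, which was counted 4 and 5 times in the controls, compared with 11 and 5 in the clones.

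By the distance of their centred log2 CPM over the 4 libraries, the genes with a pattern most like that of Sox10 were Lef1, Fxyd3, Tenm3, Afap1l2 and Mir3065, at distances of 1.16 to 1.51. Lef1, an HMG-domain factor of the Wnt pathway, was nearest, with 15 and 19 counts for controls 1 and 2, no counts for clone A and 6 for clone B. The log2 fold change of Lef1 was -2.56, with an adjusted p of 0.0952 that missed the threshold. In GRCr8, Mir3065 overlaps Aatk, Fxyd3 overlaps Lgi4, Lef1 overlaps the gene model Lef1l and Tenm3 overlaps several models. Their counts are therefore uncertain. Among the genes most like Sox9 were Cacna2d4, Ndst3, Plcb2 and Zfp385a, at distances of 0.866 to 1.21. Cacna2d4 overlaps Lrtm2 and Adipor2, and Zfp385a overlaps a further gene model, so that their counts are uncertain as well. Zfp385a was counted 2 and 1 times in the controls, compared with 35 and 17 in clones A and B, with a log2 fold change of 3.92. Zfp385a passed the filter through the clones alone, and Lef1 through the controls alone. Both orders rest on 4 libraries that also separate clones from controls, and describe likeness only. Because the genes were picked by this pattern, a p for any of them is no separate result.

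Further lists of genes were taken from general knowledge, but were chosen with earlier results of these data known. Of 23 genes for other HMG-domain proteins, 19 were listed, 14 had counts and 6 were tested. None of the 6 was called after adjustment in edgeR or by DESeq2, and 2 had an unadjusted p under 0.05, Lef1 among them. The 6 genes had a median log2 fold change of -0.33, compared with -0.01 over all tested genes. Of 23 known SoxE targets in glia and neural crest, 8 were tested and 4 were lower, whereas 0 were higher, beside 2.50% lower and 1.11% higher over all tested genes. Their median log2 fold change was -1.23. The 4 genes were Erbb3, a receptor for neuregulins, S100b, a calcium-binding protein, Aatk, a kinase gene, and Cnp, a gene of the oligodendroglial cytoplasm. Erbb3 had 15 and 13 counts in the controls but 0 in clones A and B, and Cnp had 62 and 68 counts against 35 and 20. S100b had 26 and 22 counts against 2 and 1, and Aatk had 37 and 48 against 4 and 8. DESeq2 also called Erbb3, S100b and Aatk, but not Cnp. Erbb3, S100b and Aatk passed the filter through the controls alone, where they were high, so that the number of called genes is a description. Of the 8 tested genes, 2 had a log2 fold change above 0. These were Cspg4 with 0.93 and Pdgfra with 0.22, and neither was called.

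Of the genes known to follow Sox9 in cartilage, 10 of 12 were listed and only Col27a1 could be tested. Col27a1 had a log2 fold change of -0.94 ± 0.52 (SE) with an adjusted p of 0.445 in edgeR. Col2a1, the classical Sox9 target in chondrocytes, had 3 and 1 counts in the controls but 0 in the clones, and Acan had 2 counts in clone A only. Col9a2, another collagen gene of cartilage, was counted 1 and 6 times in the controls, compared with 6 and 8 in clones A and B. Among 9 genes of neural progenitors, which are linked to SoxB proteins, Vim and Notch1 could be tested and neither was called by edgeR or DESeq2. Vim alone had an unadjusted p under 0.05, with a log2 fold change of -0.77 and an adjusted p of 0.115. Of 7 neuronal genes linked to SoxC proteins, Stmn1 and Map2 could be tested, with log2 fold changes of -0.98 and -1.09. Neither was called by edgeR or DESeq2, and 0 had an unadjusted p under 0.05.

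Markers were examined as well. Of 7 precursor markers, Pdgfra, Cspg4, Nkx2-2 and Ptprz1 were tested and none was called by edgeR or DESeq2, with 1 unadjusted p under 0.05, for Cspg4. Cspg4, a proteoglycan of precursors, had 256 and 301 CPM in the controls and 674 and 408 CPM in clones A and B, and Pdgfra, their growth factor receptor, had 368 and 368 CPM against 360 and 498 CPM. Olig2, a defining factor of the lineage, had 7 counts in control 1 and 0 in the other libraries, and Olig1 had 12 counts in control 1, 1 in control 2 and 0 in the clones. The myelin markers Mag and Mobp were at 0 counts everywhere, and Cnp was the only called gene among the 3 tested of 7, beside 2.50% of all tested genes called lower. For 7 markers of Schwann cells and neural crest, 6 were listed and their summed level was 1263 and 1444 CPM in the controls and 523 and 306 CPM in the clones. Of 3 tested, only Ngfr was called, beside the same 2.50%, with 37 and 62 counts in the controls but 0 in clones A and B. Ngfr passed the filter through the controls alone. The 7 astrocyte markers summed to 432 and 213 CPM in the controls and to 34.8 and 56.6 CPM in the clones, with S100b as the only tested and called gene. S100b, which is also among the SoxE targets, provided 416 and 213 CPM of the sums in the controls and 23.2 and 11.3 CPM in the clones, whereas Gja1 had 0 counts in both controls and 1 and 4 in the clones. Aqp4, Slc1a3, Slc1a2 and Aldh1l1 were at 0 counts everywhere. Of 6 neuronal markers, 5 microglial markers and 5 fibroblast markers, 1, 0 and 1 were tested. The summed neuronal markers were 128 and 174 CPM in the controls and 105 and 45.3 CPM in the clones. The microglial markers summed to 63.9 and 136 CPM in the controls and to 58.1 and 45.3 CPM in the clones, and the fibroblast markers to 368 and 397 CPM against 325 and 136 CPM. Tubb3, Rbfox3, Syt1, Dcx, Cx3cr1, Itgam, Ptprc, Col1a2, Dcn and Lum were at 0 counts everywhere. The HMG-domain genes Hmgb1 and Hmgb3 were at 0 counts everywhere as well. A 0 in these counts does not show that a transcript or a cell type was absent. Neither tested gene, Map2 and Col1a1, was called by edgeR or DESeq2, with 0 unadjusted p under 0.05. The myelin markers summed to 1343 and 969 CPM in the controls and to 685 and 419 CPM in the clones. Apart from the precursor markers, the sum of each of these marker lists was lower in both clones than in both controls. Among all tested genes, 21.4% were lower without overlap, which is a share of single genes and no background for sums. Outside the Schwann cell and neural crest list, most of each sum in the controls came from a single gene. These were Cnp for myelin, S100b for astrocytes, Map2 for neurons, Csf1r for microglia and Col1a1 for fibroblasts. The part of these lists in the SoxE result was not tested. In these bulk libraries, fewer cells with a transcript and less transcript per cell cannot be told apart.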

How the data were processed

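RNA was sequenced from 2 control and 2 Sox10-deficient OLN93 libraries. The authors mapped reads with STAR 2.5.1 to the rat genome rn5, counted unique mappings with HTSeq and deposited raw counts per gene symbol. The annotation by symbol and the strand option are not given in the sources used here. A further deposited table holds the authors' own DESeq2 results by Ensembl identifier. From it, only the mean read count, rounded by the authors and treated here as a score, was used, and its fold changes, errors and p-values were not used.

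Differential expression was assessed with edgeR 4.0.16 under R 4.3.3, using filterByExpr, TMM, glmQLFit and glmQLFTest on condition alone, with Benjamini-Hochberg adjustment over 2438 genes. The code was tested on simulated data. Standard errors were derived from the F statistic. A small prior count was used for fold changes. Printed CPM use all deposited counts of a library times its TMM factor. Nothing but the labels shows that libraries are separate cultures, and p-values measure the spread between them. The libraries of a group differed by more than sampling noise, with a chi-square per degree of freedom of 2.18 for the controls and 2.20 for the clones. Exact Clopper-Pearson intervals came from scipy 1.17.1 under Python 3.11.15.

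Alternatives were DESeq2 1.42.0, other scalings, filters and prior counts, the replicate number in the model, and leaving out each library. All 10 Sox genes were named. Other genes were named by list calls, up to 4 per list, by counts above 3 for other Sox genes, and by the 5 smallest distances to Sox10 and Sox9. The tested genes and the genes at or near 0 in the lists without a call and the neighbours were named after their values were seen. Some genes that these rules name are not reported here. The Sox genes and lists were chosen with earlier results of these data known. Proteins were not analysed here.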

Additional observations from a re-analysis of the deposited data

How the results depend on the processing

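Sox2 kept its direction in 12 of 12 alternatives and Sox6 in 12 of 12, with adjusted p-values from 0.652 to 0.9998 and from 0.569 to 0.9998 in edgeR and DESeq2. Over the fits that left out 1 library, the log2 fold change ranged from 0.31 to 0.52 for Sox2, from -0.77 to -0.12 for Sox6, from -1.11 to 0.11 for Sox4, from 3.72 to 7.44 for Sox9 and from -8.51 to -1.75 for Sox10. Sox4 kept its direction in 11 of 12 alternatives and turned to 0.11 without clone A. Sox9 and Sox10 kept their direction in 11 of 11 alternatives each, with adjusted p-values from 2.08e-05 to 0.459 and from 4.29e-09 to 0.9998. Both fell out of the fit that required 10 counts in each library. Sox10 was not called by DESeq2, with -2.74, and the cause was not tested.

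The numbers in the labels are shared by controls and clones, but nothing says that they mark a shared batch, and the deviations of same-numbered libraries had a correlation of 0.12 across 2438 genes. With the replicate block, Sox9 had a log2 fold change of 4.29 (adjusted p = 0.0653 from edgeR) and Sox10 of -2.82 (adjusted p = 0.1251), and 28 genes were lower and 11 higher after adjustment. The block leaves fewer residual degrees of freedom.

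After adjustment, 61 genes were lower and 27 higher. DESeq2 gave 28 and 8, a minimum of 10 counts in each library gave 8 and 9 of 1122 genes, and no filter gave 44 higher genes. Leaving out 1 library gave 0 to 70 lower and 0 to 39 higher genes, with 0 in edgeR without control 2, where 138 were lower and 137 higher by the unadjusted p. Without clone A, 39 were lower and 16 higher, and without clone B 15 were higher. By the unadjusted p, 170 genes were lower and 113 higher. DESeq2 gave 103 and 68, no filter 329 and 295, and at least 10 counts 42 and 31. Leaving out 1 library gave 138 to 181 lower and 96 to 146 higher genes.

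The log2 ratio of the SoxE sum was -0.69, from -0.84 to -0.52 without 1 library, and 2.28 without Sox10. The share of Sox9 among SoxE counts was 73.5 percentage points higher in the clones, from 54.8 to 92.3 without 1 library. Sox5, Sox8 and Sox13 had few counts, and the reason was not tested.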
